A study of Mus musculus with 16 samples.

Results

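Glutathione transferases, glutathione peroxidases, peroxiredoxins, superoxide dismutases, carbonyl reductases and aldo-keto reductases were followed across 6 cell populations of mouse heart and bone marrow. Members were taken by symbol from the array's probe annotation: every cytosolic or kappa-class transferase (Gsta, Gstm, Gstp, Gstt, Gstz, Gsto and Gstk), every Gpx, Prdx, Sod, Cbr and Akr1 gene, without Gsta3 and Akr1b8. This gave 47 of the 17710 genes measured, namely 17 transferases, 7 glutathione peroxidases, 6 peroxiredoxins, 2 superoxide dismutases, 4 carbonyl reductases and 11 aldo-keto reductases. Sod1 and Akr1b3 were not analysed here, and Akr1a1 stood on the array under its older symbol Akr1a4. Symbols chose them, with earlier results of these data known.

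Transferases join glutathione to electrophiles such as the aldehydes left by lipid peroxidation, which prepares them for export. Superoxide dismutases turn superoxide into hydrogen peroxide, which glutathione peroxidases and peroxiredoxins reduce at the expense of glutathione and thioredoxin. Carbonyl and aldo-keto reductases use NADPH to reduce aldehydes and ketones, including steroids. Many of these genes are known targets of NRF2, a transcription factor that KEAP1 holds back until oxidants or electrophiles release it.

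The study asked how progenitor cells of the heart relate to those of bone marrow. All samples came from C57BL/6 mice of normal genotype, with no treatment or age given in the labels. Heart c-kit cells (3 arrays) and marrow c-kit cells (3 arrays) were sorted for the stem cell factor receptor, heart Sca1 cells (3 arrays) for Sca1 without CD45 and CD31, and heart side population cells (2 arrays) for efflux of Hoechst dye. Cardiomyocytes (2 arrays) were collected by slow centrifugation, and marrow mesenchymal stem cells, or MSC (3 arrays), were harvested after 5 passages. The labels give all samples the same matrix-coated dishes and stem cell medium, and do not say whether the sorted cells were kept in culture before RNA was taken. Nor do they say whether replicates came from separate animals, so the p-values measure only how far these arrays spread, which could be technical variation. Fewer cells of a type and less RNA per cell cannot be told apart in such samples.

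Levels are log2 intensities of the Cy5 channel, quantile normalised over 26423 probes, and are compared between samples for 1 gene at a time, since probes of different genes have no common scale. A difference is a difference of group means with its standard error (SE), tested with limma on 16 arrays, and genes with a Benjamini-Hochberg adjusted p (over 17710 genes) under 0.05 are referred to as called. The median spot intensity per array ranged from 15 to 200, and both side population arrays and heart c-kit replicate 2 were the dimmest. Replicates correlated at 0.791 to 0.805 over genes for heart c-kit and at 0.748 for the side population, against 0.893 to 0.942 for the other groups. On each array a single repeated value filled 3.38% to 13.8% of probes. It was treated as a spot without a usable signal, so a level at fill is not a measured level. Nor is it a strict bound, since some measured spots read lower. On heart c-kit replicate 3, Akr1d1 read -6.33 and was not at fill, while Akr1a1 at fill read -5.41. Of the 47 members, 33 were never at fill, 14 were at fill on at least 1 array, and 0 came near the scanner's ceiling.

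Marker lists were set against the labels. The 10 measured cardiomyocyte markers averaged 6.34 to 6.43 on cardiomyocyte arrays and at most 3.31 on any other array. Endothelial markers (10 measured) averaged 6.25 to 6.68 in cardiomyocytes, 4.75 to 5.64 in heart c-kit cells, 0.37 to 0.72 in the side population and at most 0.12 in marrow groups. In heart Sca1 cells they averaged 0.15 and 1.94 on replicates 1 and 2 but 5.19 on replicate 3, which stood apart. Fibroblast markers (9 measured) averaged 6.43 to 6.72 in heart Sca1 cells, 5.76 to 5.86 in the side population, 4.83 to 5.52 in cardiomyocytes, 1.24 to 3.02 in heart c-kit cells, 1.59 to 2.69 in MSC and -1.65 to -0.95 in marrow c-kit cells. Macrophage and leukocyte markers (8 measured) averaged 5.92 to 6.31 in MSC, higher than on any array of the other groups, and Ptprc, the CD45 gene, had a mean level of 7.05 ± 0.43 (SD, n = 3) there. Granulocyte markers (8 measured) averaged 5.71 to 6.23 in marrow c-kit cells and lay below 0 elsewhere. Mast cell markers (6 measured) averaged 1.37 to 1.88 in marrow c-kit and 0.94 to 1.85 in heart c-kit cells and lay below 0 on the arrays of the other 4 groups. Of these, Cma1, mast cell chymase, had a mean level of 3.62 in heart c-kit cells and at most -0.49 in any other group, and Tpsb2, a tryptase, 6.46 against at most 4.11. The rest of the list was lower in heart c-kit than in marrow c-kit cells. Mean levels were 2.57 and 4.6 for Cpa3, -3.85 and 1.14 for Ms4a2, and -4.33 and -1.65 for Fcer1a. Kit itself had mean levels of 5.50 ± 0.32 in marrow c-kit and 3.67 ± 1.46 in heart c-kit cells (SD, n = 3 each). No measured marker was at fill on all arrays of any group. The part of cell composition in the results that follow was not tested.

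Levels differed between the 6 groups in every family. The moderated F test over the 6 groups called 27 of 47 members, or 57.4%, against 31.9% of all 17710 genes. By family these were 11 of 17 transferases, 4 of 7 glutathione peroxidases, 3 of 6 peroxiredoxins, 1 of 2 superoxide dismutases, 2 of 4 carbonyl reductases and 6 of 11 aldo-keto reductases. Among the 27 called members, the highest group mean lay in heart Sca1 cells for 8, the side population for 6, heart c-kit cells for 5, marrow c-kit cells for 4, MSC for 3 and cardiomyocytes for 1. The lowest mean lay in marrow c-kit cells for 10 and in heart c-kit cells for 7. Highest and lowest groups were not counted over all genes, so these counts do not set the members apart from other genes. Of these 27, 15 were called under each of 22 alternative settings: Akr1a1, Akr1b10, Akr1c13, Akr1c14, Cbr3, Gpx3, Gpx8, Gstk1, Gstm2, Gstm5, Gstp1, Gstt1, Gstz1, Prdx1 and Sod3. On the arrays with their medians aligned instead, or as deposited, 19 members were called.

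**Figure D1:**
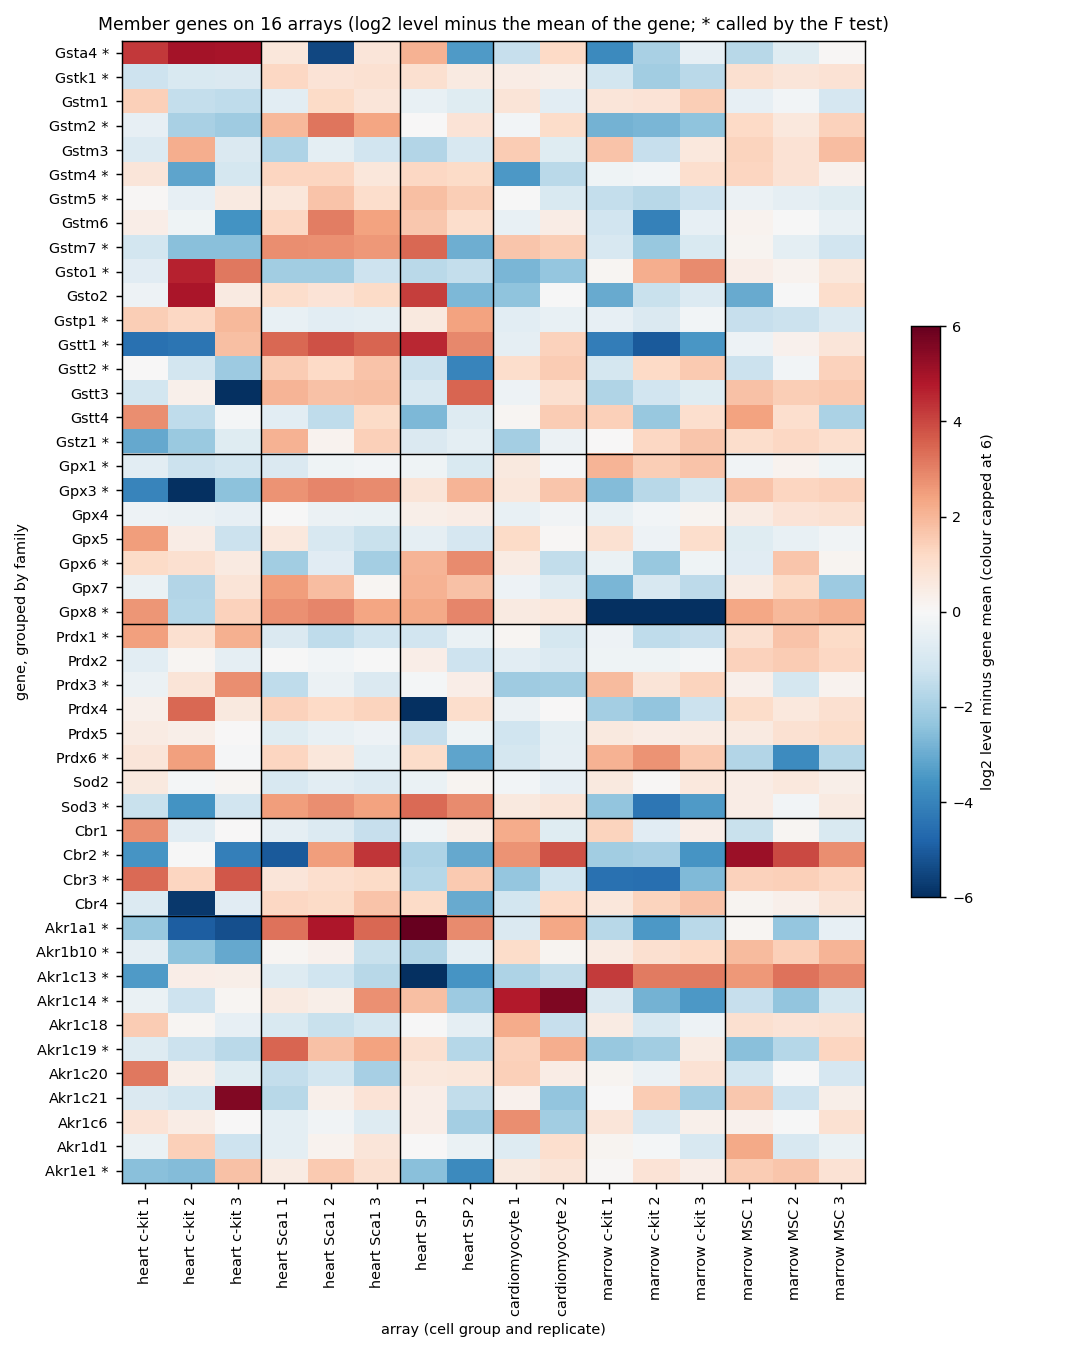
Levels of the 47 members on the 16 arrays, each row the log2 level minus the mean of that gene, with colour capped at 6 in both directions and members grouped by family. Rows differ in which arrays are high, and no group is high throughout: the 27 called members peak in each of the 6 groups at least once.

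Among the transferases, 3 classes had high levels in heart c-kit cells. Gsta4, the alpha-class enzyme that conjugates hydroxynonenal, read 7.02, 7.76 and 7.74 in heart c-kit cells, 3.44, -2.69 and 3.49 in heart Sca1 cells, 4.87 and -0.62 in the side population, 1.42 and 4.0 in cardiomyocytes, -1.03, 0.84 and 2.30 in marrow c-kit cells and 1.10, 2.06 and 2.84 in MSC. All 3 heart c-kit arrays lay above the other 13, while the replicates of the Sca1 and side population groups were far apart. Gsta4 was 6.80 ± 1.62 log2 higher in heart c-kit than in marrow c-kit cells (SE; limma adjusted p = 0.0137) and 6.09 ± 1.62 higher than in heart Sca1 cells (adjusted p = 0.0269). Gstp1, the pi-class transferase, read 3.76, 3.55 and 4.26 in heart c-kit cells, 1.86, 1.65 and 1.73 in heart Sca1 cells, 2.89 and 4.72 in the side population, 1.67 and 1.86 in cardiomyocytes, 1.80, 1.44 and 2.13 in marrow c-kit cells and 0.91, 1.01 and 1.48 in MSC. Heart c-kit and side population arrays were the high ones and overlapped each other. The Gstp1 difference from marrow c-kit cells was 2.06 ± 0.53 (adjusted p = 0.0218) and that from heart Sca1 cells 2.11 ± 0.53 (adjusted p = 0.0207). Gsto1, an omega-class enzyme that reduces mixed disulfides and dehydroascorbate, read 3.54, 8.84 and 7.37 in heart c-kit cells, 2.12, 2.12 and 2.97 in heart Sca1 cells, 2.61 and 2.80 in the side population, 1.49 and 1.92 in cardiomyocytes, 4.35, 6.42 and 7.04 in marrow c-kit cells and 4.64, 4.44 and 4.91 in MSC. The heart and marrow c-kit arrays overlapped, and both lay above heart Sca1, side population and cardiomyocyte arrays. Gsto1 was 4.18 ± 1.06 higher in heart c-kit than in heart Sca1 cells (adjusted p = 0.021) and 4.88 ± 1.18 higher than in cardiomyocytes (adjusted p = 0.036).

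Of the mu, theta, kappa and zeta transferases, Gstm2, Gstm7, Gstt1, Gstk1 and Gstz1 were called lower in heart c-kit than in heart Sca1 cells, and the other mu and theta members were not called in that comparison. Gstm2 read 3.18, 4.41 and 3.60 in heart Sca1 cells, 1.25 and 2.02 in the side population, 1.08 and 2.33 in cardiomyocytes, 2.43, 1.86 and 2.61 in MSC, 0.75, -0.71 and -0.92 in heart c-kit cells and -1.62, -1.53 and -1.20 in marrow c-kit cells. Both c-kit sorts were low, with every array below those of the other 4 groups. Heart c-kit minus heart Sca1 cells gave -4.02 ± 0.60 for Gstm2 (limma adjusted p = 0.000706), and marrow c-kit cells minus MSC gave -3.75 ± 0.60 (adjusted p = 0.000803). Gstm7, of the same class, read 4.18, 4.11 and 4.0 in heart Sca1 cells, 3.06 and 2.84 in cardiomyocytes, 0.30, -1.12 and -1.14 in heart c-kit cells, 0.43, -0.87 and 0.47 in marrow c-kit cells and 1.55, 0.81 and 0.23 in MSC. Its side population arrays disagreed, at 4.82 and -1.56. Heart c-kit minus heart Sca1 cells gave -4.75 ± 1.15 for Gstm7 (adjusted p = 0.0164).

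Gstm5 was high in heart Sca1 cells (6.20, 7.22 and 6.56) and the side population (7.32 and 6.99), against 5.59, 4.99 and 6.03 in heart c-kit cells, 5.48 and 4.59 in cardiomyocytes, 4.05, 3.82 and 4.26 in marrow c-kit cells and 5.14, 4.97 and 4.79 in MSC. Every heart Sca1 and side population array lay above the other 11 arrays. Heart Sca1 cells exceeded MSC by 1.69 ± 0.50 (adjusted p = 0.0452), a call lost in 12 of 23 alternatives. For Gstm4 the levels were lowest in cardiomyocytes, at -3.23 and -1.40, and MSC (1.51, 1.08 and 0.46) exceeded them by 3.33 ± 0.94 (adjusted p = 0.0435). That call was lost in 14 of 23 alternatives. Gstm4 read 0.94, -2.95 and -0.84 in heart c-kit cells, 1.49, 1.51 and 0.89 in heart Sca1 cells, 1.44 and 1.38 in the side population and -0.02, 0.05 and 1.23 in marrow c-kit cells. Gstm1 had group means from 0.26 to 1.84 with no call (F adjusted p = 0.42). Its arrays read 2.25, -0.57 and -0.70 in heart c-kit cells, 0.19, 1.99 and 1.56 in heart Sca1 cells, 0.39 and 0.13 in the side population, 1.61 and 0.23 in cardiomyocytes, 1.55, 1.65 and 2.32 in marrow c-kit cells and 0.37, 0.68 and -0.19 in MSC. Of these 7 mu-class genes, which lie side by side in the genome, 4 were called by the F test. Their sequences are alike, and how far each probe also bound its neighbours' transcripts is not known here.

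Gstt1, a theta-class enzyme that acts on small halogenated compounds, read 4.20, 4.54 and 4.24 in heart Sca1 cells, 5.26 and 3.64 in the side population, -3.72, -3.65 and 2.54 in heart c-kit cells, -3.41, -4.29 and -2.74 in marrow c-kit cells, 0.18 and 2.13 in cardiomyocytes and 0.45, 1.01 and 1.49 in MSC. Heart c-kit replicate 3 stood well above the other 2 heart c-kit arrays, yet below every heart Sca1 array. Heart c-kit minus heart Sca1 cells gave -5.94 ± 1.29 (adjusted p = 0.00917) and marrow c-kit cells minus MSC gave -4.46 ± 1.29 (adjusted p = 0.0385). Gstk1, the kappa-class enzyme of mitochondria and peroxisomes, read 2.52, 2.83 and 2.90 in heart c-kit cells and 2.66, 1.65 and 2.12 in marrow c-kit cells. The other groups lay higher, at 4.99, 4.57 and 4.66 in heart Sca1 cells, 4.73 and 4.30 in the side population, 4.21 and 4.09 in cardiomyocytes and 4.69, 4.46 and 4.62 in MSC. No c-kit array reached the level of any array outside the c-kit sorts. The Gstk1 difference was -1.99 ± 0.46 for heart c-kit minus heart Sca1 cells (adjusted p = 0.0125) and -2.44 ± 0.46 for marrow c-kit cells minus MSC (adjusted p = 0.00276). Gstz1, the isomerase that handles maleylacetoacetate in tyrosine breakdown, read -2.38, -1.57 and -0.05 in heart c-kit cells, 2.76, 0.87 and 2.08 in heart Sca1 cells, -0.21 and 0.07 in the side population, -1.38 and 0.30 in cardiomyocytes, 0.70, 1.89 and 2.31 in marrow c-kit cells and 1.70, 1.91 and 1.69 in MSC. It was low in heart c-kit cells against both marrow c-kit cells (-2.97 ± 0.73, adjusted p = 0.0163) and heart Sca1 cells (-3.24 ± 0.73, adjusted p = 0.0112). Of the remaining transferases, Gstt2 was called by the F test (adjusted p = 0.0415), with group means from -4.16 to -0.06. That call was kept in 6 of 21 alternatives. Gstm3, Gstm6, Gsto2, Gstt3 and Gstt4 were not called and were at fill on 0 to 4 arrays each.

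**Figure D2:**
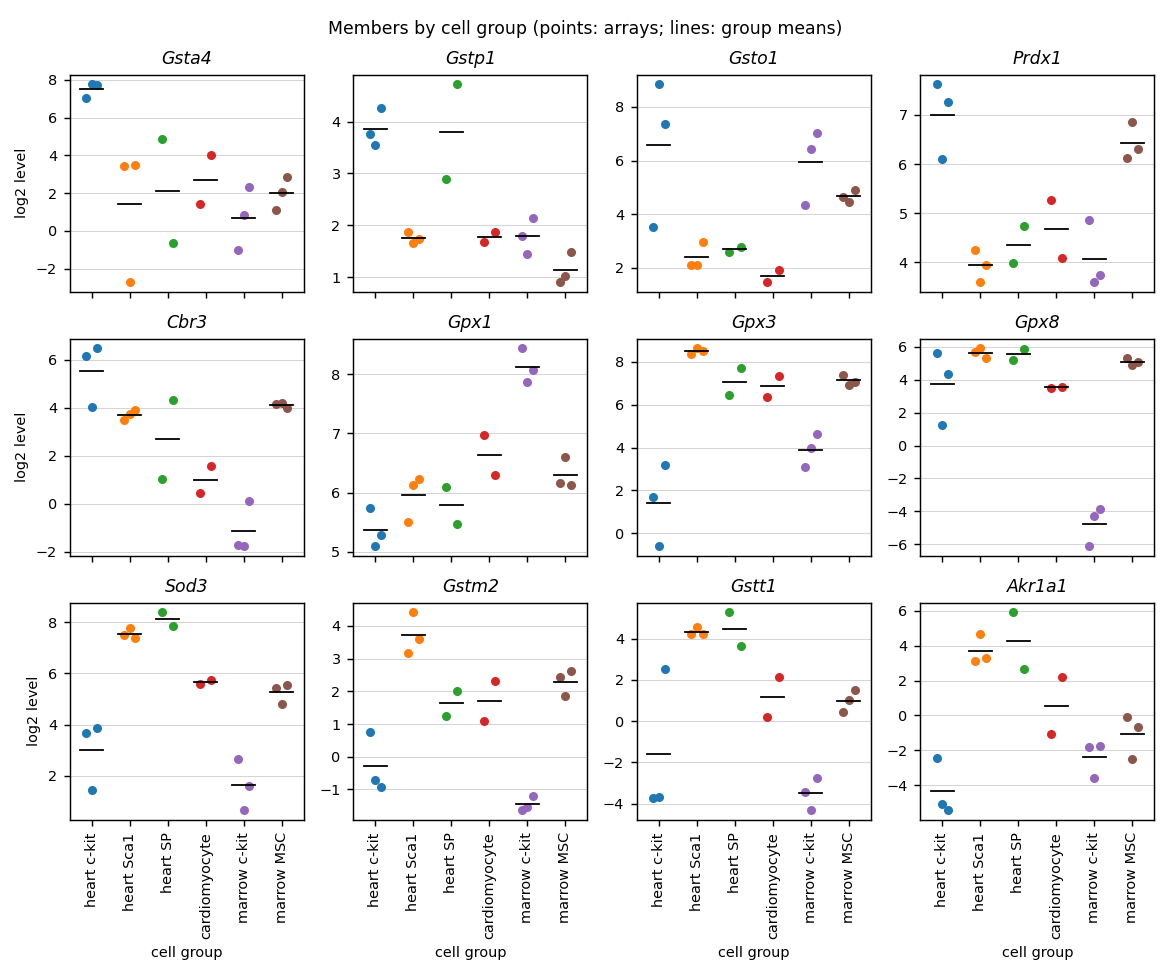
Log2 levels of 12 members by cell group, 1 point per array and a bar at the group mean. Gsta4, Gstp1 and Prdx1 sit highest on heart c-kit arrays or share the top with 1 other group, and Gpx3, Sod3, Gstm2, Gstt1 and Akr1a1 sit low there.

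Among the glutathione peroxidases, Gpx8 gave the widest gap. Gpx8, a peroxidase of the endoplasmic reticulum membrane, read -6.08 (at fill), -4.29 and -3.87 in marrow c-kit cells. Every other array was higher, at 5.62, 1.22 and 4.31 in heart c-kit cells, 5.68, 5.89 and 5.31 in heart Sca1 cells, 5.20 and 5.88 in the side population, 3.51 and 3.57 in cardiomyocytes and 5.29, 4.89 and 5.07 in MSC. Heart c-kit cells exceeded marrow c-kit cells by 8.47 ± 0.90 (adjusted p = 2.6e-05), and marrow c-kit cells minus MSC gave -9.83 ± 0.90 (adjusted p = 7e-06). With 1 marrow array at fill, the fitted size depends on that value.

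Gpx3, the peroxidase secreted into plasma and extracellular fluid, was low in both c-kit sorts. It read 1.70, -0.57 and 3.19 in heart c-kit cells and 3.07, 3.99 and 4.61 in marrow c-kit cells, against 8.36, 8.61 and 8.49 in heart Sca1 cells, 6.45 and 7.68 in the side population, 6.33 and 7.35 in cardiomyocytes and 7.39, 6.93 and 7.04 in MSC. The 6 c-kit arrays lay below the other 10. Heart c-kit minus heart Sca1 cells gave -7.04 ± 0.80 (adjusted p = 0.000109), heart c-kit cells minus cardiomyocytes -5.40 ± 0.89 (adjusted p = 0.00424), and marrow c-kit cells minus MSC -3.23 ± 0.80 (adjusted p = 0.0175). Gpx1, the abundant cytosolic peroxidase, was highest in marrow c-kit cells at 8.44, 7.88 and 8.07. Other levels of Gpx1 were 5.74, 5.10 and 5.28 in heart c-kit cells, 5.50, 6.13 and 6.23 in heart Sca1 cells, 6.10 and 5.47 in the side population, 6.98 and 6.30 in cardiomyocytes and 6.16, 6.60 and 6.12 in MSC. The 3 marrow c-kit arrays did not overlap any other. Heart c-kit minus marrow c-kit cells gave -2.76 ± 0.48 (adjusted p = 0.00156), and marrow c-kit cells exceeded MSC by 1.83 ± 0.48 (adjusted p = 0.0233).

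Gpx4, which reduces lipid hydroperoxides in membranes and holds back ferroptosis, was not called by the F test (adjusted p = 0.231). Its levels were 7.40, 7.38 and 7.23 in heart c-kit cells, 7.68, 7.36 and 7.34 in heart Sca1 cells, 8.05 and 8.15 in the side population, 7.28 and 7.52 in cardiomyocytes, 7.27, 7.56 and 7.88 in marrow c-kit cells and 8.22, 8.56 and 8.61 in MSC. A second, dimmer Gpx4 probe had group means of -0.10 to 1.60, with MSC at -0.08, so the probes disagree on the place of MSC. Gpx6 was called by the F test (adjusted p = 0.0202), with group means from -5.21 to -1.15 and 3 arrays at fill. Gpx5 and Gpx7 were not called.

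Prdx1, a cytosolic peroxiredoxin, separated 2 groups from the other 4. It read 7.62, 6.11 and 7.27 in heart c-kit cells and 6.12, 6.86 and 6.30 in MSC, against 4.26, 3.61 and 3.95 in heart Sca1 cells, 3.98 and 4.74 in the side population, 5.26 and 4.10 in cardiomyocytes and 4.86, 3.61 and 3.75 in marrow c-kit cells. The arrays of heart c-kit cells and MSC overlapped each other and no others. Heart c-kit cells exceeded marrow c-kit cells by 2.92 ± 0.59 (adjusted p = 0.00457) and heart Sca1 cells by 3.06 ± 0.59 (adjusted p = 0.00433). The differences from MSC were -2.49 ± 0.59 for heart Sca1 cells (adjusted p = 0.0137) and -2.36 ± 0.59 for marrow c-kit cells (adjusted p = 0.018). Prdx2, the related cytosolic enzyme that is abundant in red cells, read 7.25, 7.39 and 7.11 in MSC and 4.63 to 6.26 on the other 13 arrays. In detail, it was at 5.22, 5.97 and 5.30 in heart c-kit cells, 5.85, 5.71 and 5.83 in heart Sca1 cells, 6.26 and 4.63 in the side population, 5.24 and 5.02 in cardiomyocytes and 5.60, 5.60 and 5.75 in marrow c-kit cells. MSC exceeded cardiomyocytes by 2.12 ± 0.56 (adjusted p = 0.0342), while the F test missed the threshold (adjusted p = 0.0533). The pairwise call was lost in 9 of 23 alternatives.

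Prdx3, the mitochondrial peroxiredoxin, read -0.21, 0.94 and 2.92 in heart c-kit cells and 2.03, 0.91 and 1.50 in marrow c-kit cells. Its other levels were -1.36, -0.22 and -0.71 in heart Sca1 cells, 0.04 and 0.57 in the side population, -1.99 and -1.95 in cardiomyocytes and 0.45, -0.90 and 0.37 in MSC. Cardiomyocytes were the low group, 3.19 ± 0.82 below heart c-kit cells (adjusted p = 0.047), a call lost in 18 of 23 alternatives. Prdx6, which also carries phospholipase activity, read 1.35, -0.67 and 1.44 in MSC against 5.22, 5.80 and 4.68 in marrow c-kit cells, a difference of 4.52 ± 1.02 (adjusted p = 0.00962). The cardiac arrays read 3.86, 5.58 and 3.05 in heart c-kit cells, 4.41, 3.78 and 2.51 in heart Sca1 cells and 2.06 and 2.56 in cardiomyocytes, all above MSC, while the side population arrays disagreed at 4.20 and -0.05. Prdx4 and Prdx5 were not called by the F test (adjusted p = 0.119 and 0.0549).

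Sod3, the extracellular superoxide dismutase, read 7.49, 7.79 and 7.40 in heart Sca1 cells, 8.39 and 7.85 in the side population, 5.60 and 5.76 in cardiomyocytes, 5.42, 4.82 and 5.53 in MSC, 3.68, 1.43 and 3.86 in heart c-kit cells and 2.64, 0.66 and 1.58 in marrow c-kit cells. Heart Sca1 and side population arrays were the high ones and the c-kit arrays the low ones, with no overlap between these 2 sets. Heart c-kit minus heart Sca1 cells gave -4.57 ± 0.68 (adjusted p = 0.000736) and marrow c-kit cells minus MSC -3.63 ± 0.68 (adjusted p = 0.00293). Heart Sca1 cells exceeded MSC by 2.30 ± 0.68 (adjusted p = 0.0467), a call lost in 11 of 23 alternatives. The fibroblast markers, given above, were like Sod3 highest in heart Sca1 cells and the side population and lowest in marrow c-kit cells. Gpx3 had another order. Its lowest mean was in heart c-kit cells (1.44, against 3.89 in marrow c-kit cells), and MSC (7.12) were close to the side population (7.07). The part of fibroblast-like cells in the Sod3 and Gpx3 levels was not tested. Sod2, the mitochondrial dismutase, read 6.60, 5.86 and 6.10 in heart c-kit cells, 5.02, 5.37 and 5.19 in heart Sca1 cells, 5.59 and 6.15 in the side population, 5.83 and 5.48 in cardiomyocytes, 6.57, 6.05 and 6.63 in marrow c-kit cells and 6.45, 6.62 and 6.35 in MSC. It was not called (F adjusted p = 0.192), and a dimmer second probe had group means of -1.59 to 0.24.

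Of the carbonyl reductases, Cbr3 had its highest group mean in heart c-kit cells and its lowest in marrow c-kit cells. It read 6.14, 4.04 and 6.47 in heart c-kit cells, 3.48, 3.75 and 3.90 in heart Sca1 cells, 1.05 and 4.31 in the side population, 0.44 and 1.56 in cardiomyocytes, -1.74, -1.75 and 0.12 in marrow c-kit cells and 4.14, 4.19 and 3.98 in MSC. All 3 marrow c-kit arrays lay below every other array. Heart c-kit replicate 2 (4.04) lay below MSC replicates 1 and 2 and side population replicate 2, and Cbr3 was not called against heart Sca1 cells. Cbr3 was 6.67 ± 0.86 higher in heart c-kit than in marrow c-kit cells (adjusted p = 0.000136) and 4.55 ± 0.96 higher than in cardiomyocytes (adjusted p = 0.0173), and marrow c-kit cells minus MSC gave -5.23 ± 0.86 (adjusted p = 0.00105). Cbr1, the neighbouring gene and the main cytosolic reductase of this family, was not called (F adjusted p = 0.506). Its levels were 5.81, 2.38 and 3.05 in heart c-kit cells, 2.50, 2.23 and 1.63 in heart Sca1 cells, 2.84 and 3.40 in the side population, 5.27 and 2.32 in cardiomyocytes, 4.36, 2.35 and 3.42 in marrow c-kit cells and 1.71, 3.17 and 2.11 in MSC. Cbr2, a mitochondrial reductase best known from lung, read 3.82, 2.65 and 1.48 in MSC and 1.38 and 2.50 in cardiomyocytes, against -3.41, -3.32 and -4.88 in marrow c-kit cells, -4.88, -1.36 and -5.41 (at fill) in heart c-kit cells and -3.18 and -4.38 in the side population. Its heart Sca1 arrays spread from -6.38 to 2.95, with 1.17 between. Marrow c-kit cells minus MSC gave -6.52 ± 1.81 for Cbr2 (adjusted p = 0.0321). Cbr4 was not called.

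Among the aldo-keto reductases, Akr1a1, the general aldehyde reductase that also serves vitamin C synthesis in mice, read 3.11, 4.69 and 3.28 in heart Sca1 cells and 5.91 and 2.66 in the side population. It was lower in cardiomyocytes (-1.04 and 2.18), MSC (-0.06, -2.47 and -0.64), marrow c-kit cells (-1.82, -3.61 and -1.77) and heart c-kit cells (-2.44, and -5.10 and -5.41, both at fill). Heart Sca1 and side population arrays lay above all others. Heart c-kit minus heart Sca1 cells gave -8.01 ± 1.12 (adjusted p = 0.000456), a size that depends on 2 fill values, and heart c-kit cells minus cardiomyocytes gave -4.89 ± 1.26 (adjusted p = 0.0477). Heart Sca1 cells exceeded MSC by 4.75 ± 1.12 (adjusted p = 0.0143). Akr1a1 and Prdx1 are neighbours in the genome, and the former was lowest and the latter highest in heart c-kit cells.

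The steroid-reducing Akr1c branch differed between its members. Akr1c13 was high in both marrow groups, at 5.16, 4.06 and 4.09 in c-kit cells and 3.54, 4.20 and 3.84 in MSC. In the heart it read -2.44, 1.37 and 1.32 in c-kit cells, 0.19, -0.24 and -0.73 in Sca1 cells, -5.06 (at fill) and -2.56 in the side population and -0.91 and -0.52 in cardiomyocytes. Marrow and heart arrays did not overlap. The heart was lower by -4.35 ± 0.92 in c-kit cells (adjusted p = 0.00674) and by -4.12 ± 0.92 in Sca1 cells against MSC (adjusted p = 0.0102), and MSC exceeded cardiomyocytes by 4.58 ± 1.03 (adjusted p = 0.0149). Akr1c14, a hydroxysteroid dehydrogenase, was highest in cardiomyocytes at 4.64 and 5.51. All other arrays of Akr1c14 were lower, at -0.51, -1.36 and 0.00 in heart c-kit cells, 0.42, 0.26 and 2.63 in heart Sca1 cells, 1.69 and -2.27 in the side population, -0.95, -2.93 and -3.56 in marrow c-kit cells and -1.48, -2.45 and -1.17 in MSC. Compared with cardiomyocytes, Akr1c14 differed by -5.70 ± 1.12 in heart c-kit cells (adjusted p = 0.0115), by -6.78 ± 1.12 in MSC (adjusted p = 0.00245) and by -5.01 ± 0.97 in the mean of the 3 cardiac progenitor groups (adjusted p = 0.0371). Akr1c19 read -0.33, -2.04 and -1.38 in heart Sca1 cells and -2.44 and -1.62 in cardiomyocytes, and lower in the rest: -4.56, -5.10 and -5.41 in heart c-kit cells, the last 2 at fill, -2.83 and -5.50 (at fill) in the side population, -6.08, -5.89 and -3.29 in marrow c-kit cells, the first 2 at fill, and -6.33, -5.50 and -2.53 in MSC. Heart Sca1 cells exceeded MSC by 3.53 ± 1.03 (adjusted p = 0.0434), and heart c-kit minus heart Sca1 cells gave -3.77 ± 1.03 (adjusted p = 0.0307), both sizes close to the floor of the measurement. The 2 calls were lost in 12 and 9 of 22 alternatives.

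Akr1b10, an aldehyde and retinal reductase, was lowest in heart c-kit cells at 2.76, 0.89 and 0.23. Other arrays of Akr1b10 read 3.42, 3.54 and 1.96 in heart Sca1 cells, 1.48 and 2.70 in the side population, 4.39 and 3.46 in cardiomyocytes, 3.80, 4.27 and 4.46 in marrow c-kit cells and 5.17, 4.70 and 5.34 in MSC. The heart c-kit arrays overlapped those of the other sorted cardiac cells, and lay below those of marrow c-kit cells (-2.88 ± 0.70, adjusted p = 0.015). Akr1e1 was called by the F test (adjusted p = 0.026), with group means from -1.91 to 2.61. Akr1c6, Akr1c18, Akr1c20, Akr1c21 and Akr1d1 were not called.

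Promoter sequence was examined for all members with a promoter available, whether called or not, because NRF2 binds a short antioxidant response element. The core searched was TGACNNNGC, on both strands, from 250 bases before to 50 bases after the RefSeq start (GRCm38.p6). It occurred in 4 of the 42 members with a promoter in that table (9.52%), against 2186 of 13980 genes on the array (15.6%) and 4071 of 32851 promoters in all (12.4%). The 4 members were Prdx1, Gstm5, Gstm7 and Akr1c19. In heart c-kit against heart Sca1 cells, Prdx1 was called higher, Gstm7 and Akr1c19 were called lower, and Gstm5 was not called. Shown are Prdx1, whose level was high in heart c-kit cells, and Gstm5, which was not, both with a match in capitals. Gstp1 and Cbr3, with their highest group means in heart c-kit cells and without a match to this exact core, follow. The promoters lie at chr4:116685349-116685648 (plus strand) for Prdx1, chr3:107895604-107895903 (plus strand) for Gstm5, chr19:4037863-4038162 (minus strand) for Gstp1 and chr16:93682969-93683268 (plus strand) for Cbr3.
Prdx1: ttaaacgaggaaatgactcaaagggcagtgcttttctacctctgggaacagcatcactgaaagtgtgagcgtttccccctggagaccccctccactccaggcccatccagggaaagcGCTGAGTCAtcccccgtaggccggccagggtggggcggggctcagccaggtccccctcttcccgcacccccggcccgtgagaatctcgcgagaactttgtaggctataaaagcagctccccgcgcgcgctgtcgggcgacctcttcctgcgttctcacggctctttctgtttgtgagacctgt
Gstm5: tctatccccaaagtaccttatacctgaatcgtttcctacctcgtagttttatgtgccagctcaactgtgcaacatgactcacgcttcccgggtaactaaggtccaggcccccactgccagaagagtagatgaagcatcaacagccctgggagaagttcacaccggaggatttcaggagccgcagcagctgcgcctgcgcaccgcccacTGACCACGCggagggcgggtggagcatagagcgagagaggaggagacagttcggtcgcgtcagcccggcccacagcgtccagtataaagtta
Gstp1: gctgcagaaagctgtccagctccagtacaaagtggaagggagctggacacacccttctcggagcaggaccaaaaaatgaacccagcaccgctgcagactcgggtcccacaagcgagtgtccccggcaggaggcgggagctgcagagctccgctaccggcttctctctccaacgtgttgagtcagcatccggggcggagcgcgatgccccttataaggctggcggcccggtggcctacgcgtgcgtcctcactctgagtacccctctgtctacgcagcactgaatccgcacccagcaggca
Cbr3: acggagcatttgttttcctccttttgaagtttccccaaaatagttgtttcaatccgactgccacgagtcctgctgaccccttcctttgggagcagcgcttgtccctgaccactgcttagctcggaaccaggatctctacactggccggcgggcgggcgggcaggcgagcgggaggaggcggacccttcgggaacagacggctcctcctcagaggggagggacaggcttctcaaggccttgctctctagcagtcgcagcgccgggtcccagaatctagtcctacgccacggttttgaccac
The match in Prdx1 begins 133 bases before the start and reads GCTGAGTCA, a match on the opposite strand, and that in Gstm5 begins 42 bases before the start and reads TGACCACGC. A match is a description of these letters, and its absence says only that the letters are not in this window. The Gstp1 window holds TGAGTCAGC, which has G where the core has C after TGA. Such near forms of the core were not searched for, so Gstp1 is not an example of a promoter without any related element. Gsta4, Gstt2, Sod3, Akr1c20 and Prdx6 were not matched to this table.

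Heart c-kit against heart Sca1 cells gave 13 called members. Higher in heart c-kit cells were 4 of 47 members (8.51%, against 3.31% of all genes): Gsta4, Gsto1, Prdx1 and Gstp1. Lower were 9 (19.1%, against 7.87% of all genes): Gstk1, Gstz1, Akr1c19, Gstm2, Sod3, Gstm7, Gstt1, Gpx3 and Akr1a1. The median difference over members was -0.30, against 0.23 over all genes, and with array medians aligned the 2 medians were 0.18 and 0.73. All 13 calls had arrays that did not overlap between the groups. The matching share over all genes was not taken, so this count is no further evidence for the calls. Akr1a1, Gpx3, Gstm2, Prdx1 and Sod3 were called under each of 23 alternatives. Gstt1, Gstz1, Gstm7 and Gstk1 were lost in 1 to 4 of them, Gstp1 and Gsta4 in 6 each, Gsto1 in 8 and Akr1c19 in 9 of 22, with adjusted p up to 0.177. Without heart Sca1 replicate 3, the array with high endothelial markers, 11 of the 13 were called, and without replicate 1 or 2 of that group 8 members were.

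Heart c-kit against marrow c-kit cells gave 5 higher members (10.6%, against 4.89% of all genes) and 4 lower ones (8.51%, against 5.93% of all genes). The higher members were Gpx8, Gsta4, Cbr3, Prdx1 and Gstp1, and the lower ones Gpx1, Akr1b10, Gstz1 and Akr1c13. The median difference was 0.25 over members and 0.11 over all genes (0.97 and 0.77 with array medians aligned). Cbr3 and Gpx8 were called under each of 23 alternatives, and Gpx1 was lost only with array medians aligned (adjusted p = 0.252). Gsta4 was lost only without marrow c-kit replicate 1 (adjusted p = 0.0649), Prdx1 and Akr1c13 in 1 and 2 alternatives, and Akr1b10, Gstz1 and Gstp1 in 5, 5 and 6. These 2 comparisons share the heart c-kit arrays.

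**Figure D3:**
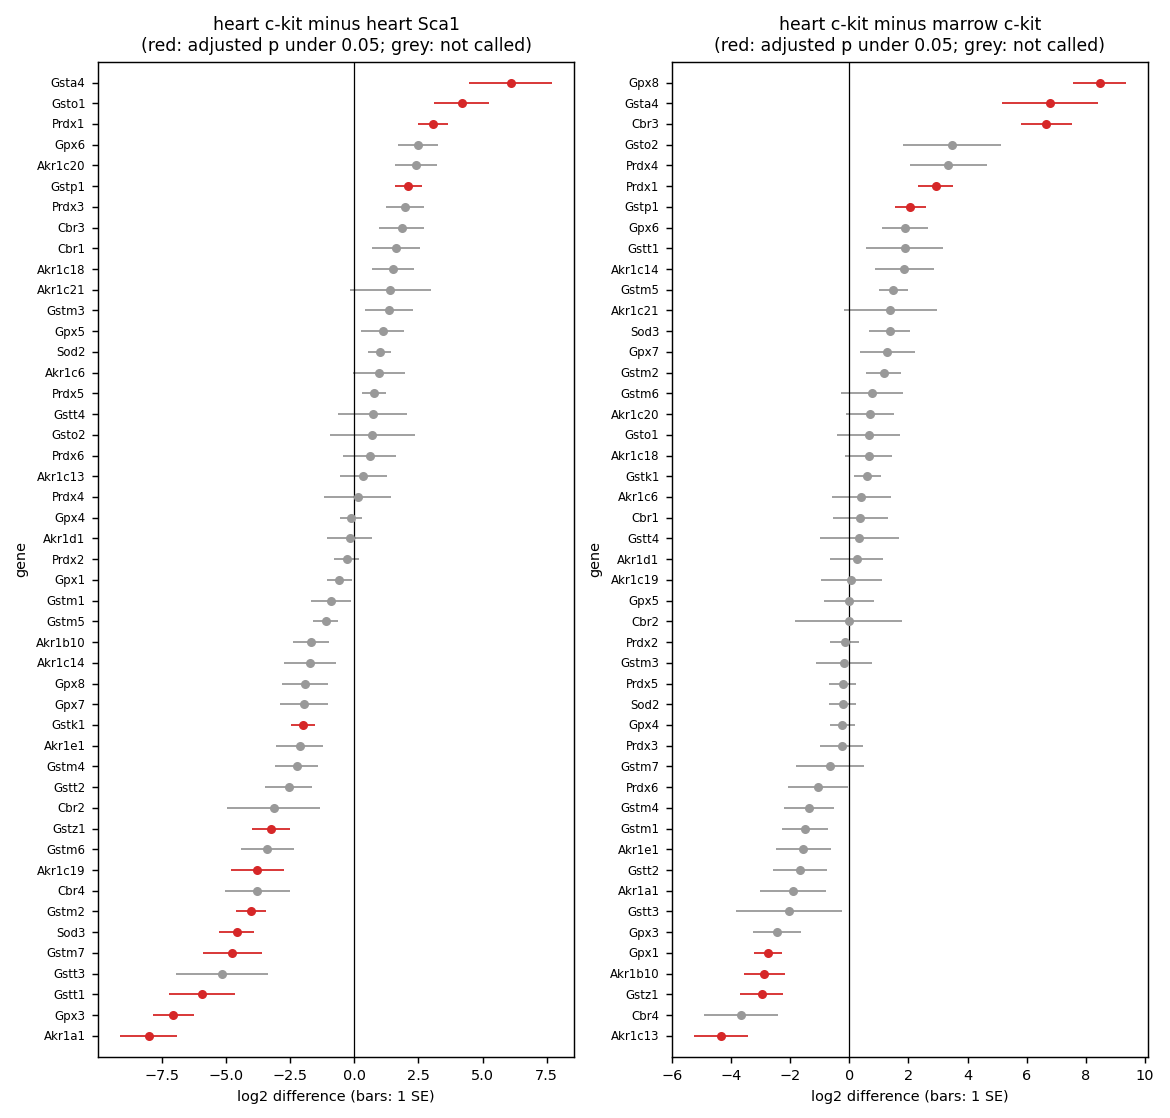
Log2 differences of the 47 members for heart c-kit minus heart Sca1 cells and heart c-kit minus marrow c-kit cells, with bars of 1 SE. Red points were called at an adjusted p under 0.05, 13 in the first and 9 in the second comparison, and Prdx1, Gstp1, Gsta4 and Gstz1 are red in both.

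In marrow, c-kit cells differed from MSC by 2 higher members (4.26%, against 3.66% of all genes), Prdx6 and Gpx1, and by 9 lower ones (19.1%, against 7.37% of all genes). The lower members were Prdx1, Gstk1, Gpx3, Sod3, Gstm2, Gstt1, Cbr3, Cbr2 and Gpx8. The median difference was -0.89 over members and 0.14 over all genes, and -0.98 and -0.16 with array medians aligned. Cbr3, Gpx8, Gstk1, Gstm2 and Sod3 were called under each of 23 alternatives, and leaving out any 1 of the 6 marrow arrays left 6 or 7 members called. Both higher calls, Prdx6 and Gpx1, were lost with array medians aligned and on the deposited values, with adjusted p up to 0.61. Gstt1 was lost in 10 of the 23, Gpx1 in 7 and Cbr2 in 6. Macrophage and leukocyte markers were higher on MSC arrays and granulocyte markers on marrow c-kit arrays, as given above, and their part in these differences was not tested.

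Heart Sca1 cells against MSC gave 4 higher members (8.51%, against 5.3% of all genes), Akr1a1, Akr1c19, Sod3 and Gstm5, and 2 lower ones (4.26%, against 5.01% of all genes), Prdx1 and Akr1c13. The shares were close to those of all genes, and so were the medians, at -0.09 and -0.10. Akr1c13 was the only one of these called under each of 23 alternatives, and the number called was 1 without MSC replicate 2 or heart Sca1 replicate 2, 3 without MSC replicate 1 or heart Sca1 replicate 1 or 3, and 10 without either side population array.

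Differences from cardiomyocytes rest on 2 arrays. Heart c-kit cells had 3 higher members (6.38%, against 0.999% of all genes), Gsto1, Cbr3 and Prdx3, and 3 lower ones (6.38%, against 2.6% of all genes), Akr1a1, Gpx3 and Akr1c14. None of these 6 was called with array medians aligned or on the deposited values, and all 6 were lost without cardiomyocyte replicate 2. Prdx3 and Akr1a1 were each lost in 18 of 23 alternatives (adjusted p up to 0.417 and 0.404) and Gsto1 in 14 (adjusted p up to 0.378). With cardiomyocyte replicate 1 left out 1 member was called, and 3 were without marrow c-kit replicate 2, heart Sca1 replicate 2 or any 1 MSC array. MSC had 3 higher members (6.38%, against 3.94% of all genes), Akr1c13, Gstm4 and Prdx2, and 1 lower, Akr1c14 (2.13%, against 3.94% of all genes), which was called under each of 23 alternatives. In that comparison 1 member was called without MSC replicate 2 or either cardiomyocyte array, and 2 without MSC replicate 1 or 3, marrow c-kit replicate 2 or heart Sca1 replicate 3. The mean of the 3 cardiac progenitor groups had 0 higher members (against 0.136% of all genes) and 1 lower member, Akr1c14 (2.13%, against 0.542% of all genes), lost without either cardiomyocyte array, any MSC array, marrow c-kit replicate 2 or 3, or heart Sca1 replicate 1 or 2. The comparisons share these cardiomyocyte arrays.

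The difference between heart and marrow was compared between the c-kit sorts and the stromal pair of heart Sca1 cells and MSC, as an interaction contrast of the same model chosen after the data had been seen. It was called for 6 of 47 members (12.8%, against 7.46% of all genes): Prdx1, Gpx8, Cbr3, Akr1a1, Gpx1 and Gpx6. Prdx1 was higher in the heart among c-kit cells (2.92) and lower in heart Sca1 cells than in MSC (-2.49). Stromal is only a name for that pair here. Macrophage and leukocyte markers averaged 6.06 in MSC and 0.35 in heart Sca1 cells, and fibroblast markers 2.3 and 6.57. Their part in the interaction was not tested.

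Genes that serve the same chemistry were taken as 6 lists. Of the genes for glutathione synthesis and recycling, 7 of 13 measured were called by the F test (against 31.9% of all genes), as were 6 of 14 of the thioredoxin and glutaredoxin system, 6 of 8 for NADPH supply, 12 of 15 for NRF2 control and other NRF2 targets, 5 of 6 microsomal transferases and 5 of 5 oxidant-producing oxidases and peroxidases. The list of microsomal transferases also holds the soluble enzyme Hpgds, which is among its 5 called genes. In heart c-kit minus heart Sca1 cells, where 3.31% of all genes were called higher and 7.87% lower, 6 glutathione genes were higher and 2 lower, 2 thioredoxin genes higher and 0 lower, 2 NADPH genes higher and 1 lower, and 5 NRF2 genes higher and 0 lower. No gene of the microsomal and oxidant-producing lists was called there. Against marrow c-kit cells, where 4.89% of all genes were higher and 5.93% lower, 3 glutathione genes, 1 thioredoxin gene and 10 NRF2 genes were higher and 0 of these lists lower. The NADPH list had 1 higher and 2 lower, the microsomal list 2 higher and 1 lower, and the oxidant-producing list 0 higher and 5 lower. Against cardiomyocytes, where 0.999% of all genes were higher and 2.6% lower, 5 glutathione, 2 thioredoxin, 5 NRF2 and 1 microsomal gene were higher and 0 lower. The NADPH list had 2 higher and 1 lower there, and no oxidant-producing gene was called. The median differences of the NRF2 list in these 3 comparisons were 0.92, 2.42 and 1.03, against 0.23, 0.11 and 0.13 over all genes. With array medians aligned they were 1.30, 3.45 and 3.07, against 0.73, 0.77 and 0.83 over all genes.

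Slc7a11, the cystine importer that feeds glutathione synthesis, read 5.18, 3.73 and 5.48 in heart c-kit cells. It read -1.10, -0.48 and -1.53 in heart Sca1 cells, -1.56 and -2.03 in the side population, -1.36 and -0.67 in cardiomyocytes, 1.22, 1.44 and 1.60 in marrow c-kit cells and 1.17, 1.76 and 1.87 in MSC. All heart c-kit arrays lay above the rest. Gclc, the catalytic subunit of the enzyme for the first step of glutathione synthesis, read 6.40, 5.46 and 6.25 in heart c-kit cells and 0.75 to 3.48 on the other 13 arrays. It was 4.90 ± 0.50 higher in heart c-kit than in heart Sca1 cells (adjusted p = 4.49e-05) and 3.59 ± 0.50 higher than in marrow c-kit cells (adjusted p = 0.000278). Gsr, which regenerates reduced glutathione, read 6.95, 6.32 and 6.35 in heart c-kit cells and 7.18, 6.39 and 5.63 in marrow c-kit cells, above the 2.08 to 3.86 of heart Sca1, side population and cardiomyocyte arrays. MSC read 5.14, 5.73 and 5.18, overlapping marrow c-kit replicate 3.

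Srxn1, which repairs overoxidised peroxiredoxins, read 8.64, 8.39 and 8.54 in heart c-kit cells and 2.39 to 6.10 elsewhere, and was 5.69 ± 0.62 above marrow c-kit cells (adjusted p = 3.05e-05). Glrx5, a mitochondrial glutaredoxin, and Txnrd2, the mitochondrial thioredoxin reductase, were highest in MSC (5.41, 5.51 and 5.92, and 2.38, 2.46 and 2.12). Of the NADPH suppliers, Me1 separated marrow c-kit cells (-1.53, -2.78 and -4.88) from all other arrays (1.96 to 5.50), and heart c-kit cells exceeded them by 7.80 ± 0.76 (adjusted p = 1.29e-05). Taldo1 was high in heart c-kit cells (8.11, 8.11 and 7.87) and MSC (8.05, 8.31 and 7.84), the 2 groups that were also high in Prdx1. Pgls, of the pentose phosphate pathway, was highest in MSC (6.46, 6.03 and 6.14) and lower in heart c-kit than in marrow c-kit cells (-3.19 ± 0.72, adjusted p = 0.00944).

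Hmox1, heme oxygenase and a known NRF2 target, read 9.50, 9.63 and 9.35 in heart c-kit cells, 8.33, 8.23 and 8.50 in MSC, 7.95 and 8.43 in the side population, 5.58, 6.03 and 6.14 in heart Sca1 cells, 3.93 and 4.99 in cardiomyocytes and 2.46, 2.25 and 3.20 in marrow c-kit cells. It was 3.58 ± 0.49 higher in heart c-kit than in heart Sca1 cells (adjusted p = 0.000365) and 6.85 ± 0.49 higher than in marrow c-kit cells (adjusted p = 1.15e-06). Its signal came near the scanner's ceiling on 2 arrays, where the level may read too low. Sqstm1, an autophagy receptor that also binds KEAP1, read 7.87, 7.40 and 7.88 in heart c-kit cells and at most 6.03 elsewhere. Ephx1, microsomal epoxide hydrolase, was low in marrow c-kit cells alone among the 6 groups (-2.16, -1.87 and -1.09, against 2.83 or more on the other arrays). Hmox1 and Sqstm1 were highest in heart c-kit cells, where Gpx3, Sod3 and Gstm2 were low. The lowest means of Hmox1, Sqstm1, Ephx1, Sod3 and Gstm2 were all in marrow c-kit cells.

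**Figure D4:**
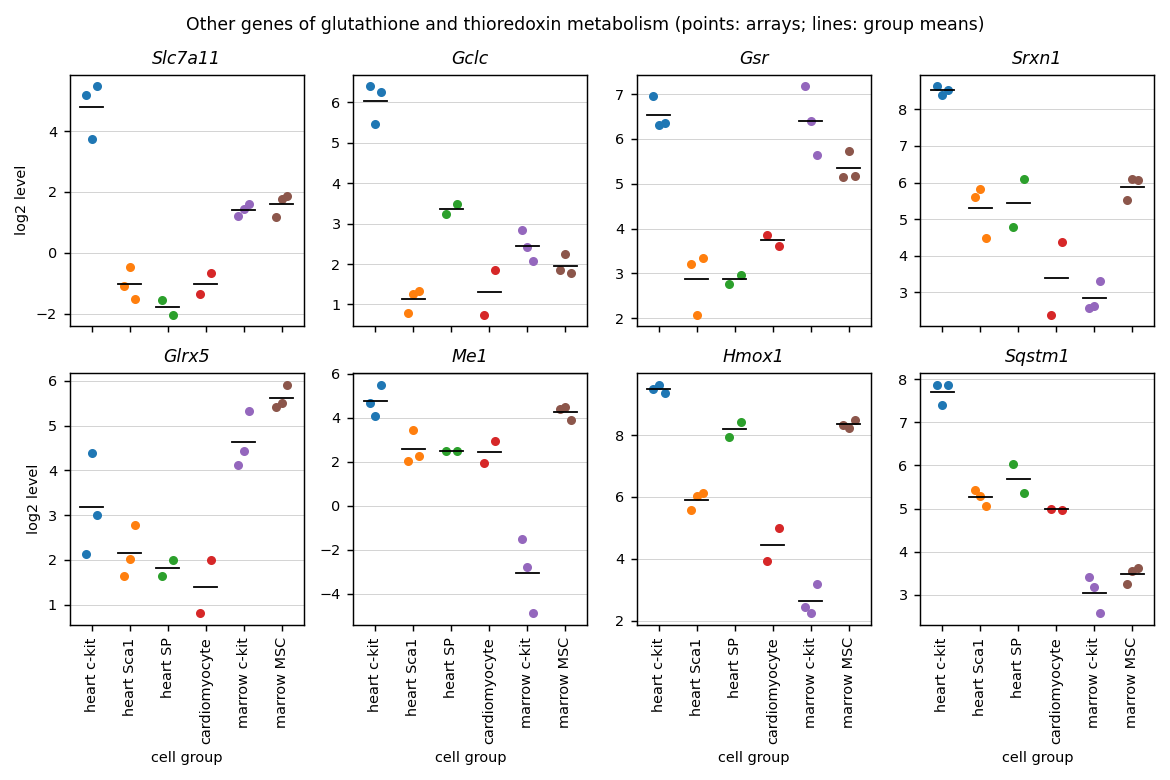
Log2 levels of 8 genes of the glutathione, thioredoxin, NADPH and NRF2 lists by cell group, 1 point per array and a bar at the group mean. Slc7a11, Gclc, Srxn1, Hmox1 and Sqstm1 are highest on the 3 heart c-kit arrays, and Me1 is lowest on the 3 marrow c-kit arrays.

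Genes of the microsomal transferase list followed other groups. Mgst2, a membrane enzyme unrelated in sequence to the cytosolic members, was highest in marrow c-kit cells (5.57, 5.42 and 5.08), followed by MSC (1.31, 1.42 and 1.59), and was below 0 on every cardiac array. Ptges, which makes prostaglandin E, read 2.62, 2.39 and 2.23 in marrow c-kit cells and 3.51 to 7.17 elsewhere. Hpgds, the soluble prostaglandin D synthase, read 4.69, 4.85 and 3.78 in MSC and 3.44, 4.04 and 3.59 in marrow c-kit cells, and at most 3.21 on cardiac arrays. Of the oxidant-producing genes, Mpo, the myeloperoxidase of granulocyte precursors, read 9.60, 9.52 and 9.55 in marrow c-kit cells and at most 2.32 elsewhere, with 2 arrays near the scanner's ceiling. Gpx1 was also highest in marrow c-kit cells. Ncf4, an oxidase subunit, and Rac2, the small GTPase of the leukocyte oxidase, were high in both marrow groups (2.92 to 3.99 and 4.29 to 5.87) and at most -2.03 and 2.97 on cardiac arrays. Heart c-kit cells were called lower than marrow c-kit cells in 5 of 5 of these genes, against 5.93% of all genes.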

How the data were processed

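Per the labels' protocols, RNA was amplified (WT-Ovation Pico) and coupled to a Cy5 ester. Cy5 was the single channel used of a chip made for 2 colours. The deposited values are log2 spot intensities minus 1 constant per array, as read from the values: restored to intensities, 100% of spots under 200 were whole within 0.005 on every array. Not given in the sources used here are the scanner, the background correction, the genome build and how fill values were set. Arrays carry no read depth, so their number limits the precision.

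Array medians ranged from -1.02 to 0.43 (over the limit of 0.5 set for this step), so 26423 probes were quantile normalised. Symbols were matched to a RefSeq table of GRCm38.p6 for names only: 18213 probes by current symbol, 2126 by synonym, with 38 ambiguous and 6046 unnamed probes left out. For genes with several probes (2273 of 17710) the brightest probe by mean was used. A single fit of 6 group means used all 16 arrays, with limma 3.58.1 in R 4.3.3 (moderated F test and 7 contrasts), and its script was tested on simulated data. Alternatives were other scalings, a filter removing the dimmest 30% of genes, the mean over probes, a replicate block, only the groups compared, each array left out, and, added after seeing the data, leaving out the 3 dimmest arrays.

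Members and lists were chosen with earlier results of these data known. Named array by array were the 16 members with the smallest F adjusted p, members called in a contrast with arrays not overlapping, and a fixed set of well-known members. From each list the 3 called genes with the smallest p were named.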

Additional observations from a re-analysis of the deposited data

Results flagged for a closer look

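For 6 members the heart minus marrow difference was not the same in c-kit cells as in the stromal pair of heart Sca1 cells and MSC, by a limma interaction contrast that was added after the data had been seen. The interaction was the c-kit difference minus that of the stromal pair. For Prdx1 it was 5.41 ± 0.83 (SE; limma adjusted p = 0.00135), from 2.92 in c-kit cells and -2.49 in heart Sca1 cells against MSC. Gpx8 gave 7.93 ± 1.28 (adjusted p = 0.00185), from 8.47 and 0.54. Cbr3 gave 7.06 ± 1.22 (adjusted p = 0.00273), from 6.67 and -0.39. Akr1a1 gave -6.66 ± 1.59 (adjusted p = 0.0208), from -1.91 and 4.75, with 2 heart c-kit arrays at fill. Gpx1 gave -2.41 ± 0.68 (adjusted p = 0.0443), from -2.76 and -0.34. Gpx6 gave 3.87 ± 1.10 (adjusted p = 0.0481), from 1.88 and -1.99, with 3 arrays at fill and low levels throughout. All 6 rest on 3 arrays in each of the 4 groups.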

How the results depend on the processing

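No call changed direction among the 50 pairwise calls of named members under the alternatives that gave a value, and 14 of the 50 were kept under each of them. Calls were lost most often with array medians aligned (24 of 50) and on the deposited values (20 of 50), and 19 of 50 when only the groups compared were fitted. Removing the dimmest 30% of genes lost 0 of 48, and the mean over probes 0 of 50. With array medians aligned the median of all genes moved from 0.11 to 0.77 in heart c-kit minus marrow c-kit cells and from 0.13 to 0.83 in heart c-kit cells minus cardiomyocytes. Members called changed by over 1.5 times in these cases, the cause of which was not tested. With medians aligned the number was 4 in place of 9 for heart against marrow c-kit cells, 2 in place of 6 for heart Sca1 cells against MSC, 1 in place of 6 for heart c-kit cells against cardiomyocytes, and 0 in place of 1 for the cardiac progenitors. On deposited values the last 3 were 3, 1 and 0. With only the groups compared they were 18, 0 and 0, against 4 of 9 for heart against marrow c-kit cells and 7 of 13 for heart c-kit against heart Sca1 cells. Without the 3 dimmest arrays, heart Sca1 cells against MSC gave 11 and MSC against cardiomyocytes 7 in place of 4. The replicate block, with replicate number as a term, gave 2 for MSC against cardiomyocytes and 0 for the cardiac progenitors, 25 in place of 27 for the F test, and lost 6 of the 50 calls. Deviations of same-numbered arrays of different groups correlated at r from -0.183 to 0.399 over 36 pairs (median 0.008). Of these pairs 4 exceeded 0.1. They were replicates 1 of heart c-kit cells, cardiomyocytes and marrow c-kit cells (0.203 to 0.399) and replicates 2 of the last 2 groups (0.32). Over 70 pairs with different numbers, 10 exceeded 0.1. Deviations sum to 0 within a group, so the median cannot exclude a shared effect of replicate number. The labels do not pair samples by number, and no pairing was assumed. Leaving out 1 array at a time gave 19 to 29 for the F test, 6 to 11 for heart against marrow c-kit cells, 1 to 10 for heart Sca1 cells against MSC, 8 to 15 for heart c-kit against heart Sca1 cells, 6 to 13 for marrow c-kit cells against MSC, 0 to 9 for heart c-kit cells against cardiomyocytes, 1 to 6 for MSC against cardiomyocytes and 0 to 2 for the cardiac progenitors. Where an arm is left with 1 array, that array is assumed to vary like the other groups.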
